A study of Mus musculus with 2 samples.

Results

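The genes described here are 34 neural RNA-binding and splicing regulators in the hindbrain of mouse embryos at embryonic day 12.5. They were chosen by GENCODE mouse symbol, by a rule that does not use their levels, but with earlier results of these data known. They fall into 11 families: Ptbp, Rbfox, Nova, Elavl, Srrm, Celf, Mbnl, Khdrbs, Msi, Igf2bp and the Fmr1 family. All 34 were found in both gene tables, among 43346 Ensembl genes. RNA was sequenced from 2 biological replicates of 1 group: hindbrain of the inbred mouse strain B6NCrl, taken from mixed-sex pools of 120 embryos (replicate 1) and 88 embryos (replicate 2). Both libraries started from 10 ng of total RNA, were made from RNA longer than 200 nt and carried ERCC spike-in RNAs. No other tissue, age or treatment was compared, so the results are levels with their replicate error, given as mean ± SD (n = 2) where not given per library, and no p-value is reported. Because hindbrain was sequenced in bulk, fewer cells of a type and less RNA per cell cannot be told apart.

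RNA-binding proteins of these families attach to short motifs in pre-mRNA and mRNA and set which exons are kept, where the RNA goes, how long it lasts and how much protein it gives. As progenitors become neurons, the splicing repressor PTBP1 is known to give way to its paralogue PTBP2, and the Rbfox, Nova, nElavl, Celf and SRRM4 proteins promote the exons typical of neurons. Microexons, exons of a few codons, are among the most neuron-specific of these, and SRRM4 is the activator known for many of them.

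The libraries held 31633169 and 29766460 expected counts, the estimated fragment numbers of the gene tables, in replicates 1 and 2. Levels are given as TPM, the share of a library's transcripts per fixed total, which corrects for transcript length and so can be compared between genes. All 9 neuronal and all 9 progenitor marker genes examined were present at 1 TPM or more in both libraries. The libraries differed in marker genes of other cell types. Summed TPM of 9 skeletal muscle genes was 56.5 in replicate 1 and 269 in replicate 2, all 5 mesenchymal genes were higher in replicate 2 (median 1.26-fold), and all 6 epithelial genes were lower (median 0.660-fold). Of 5 erythroid genes, 4 were lower in replicate 2 (median 0.795-fold), with summed TPM of 12901 and 10091.

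All 34 regulators were expressed. Each reached 1 TPM or more in both libraries, a level that 35.5% of all Ensembl genes and 63% of protein-coding genes reached. In both libraries, 33 stood at 5 TPM or more, 17 at 50 TPM or more and 6 at 100 TPM or more. Their median was 46.97 and 48.38 TPM in replicates 1 and 2, against 21.25 and 21.67 TPM for the 13520 protein-coding genes detected. A list of 60 other RNA-binding genes had medians of 62.75 and 61.94 TPM, with Hnrnpk (1643 and 1727 TPM), Hnrnpa2b1 (1003 and 1118 TPM) and Hnrnpa1 (905 and 910 TPM) at its top, all of them abundant nuclear RNA-binding proteins.

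**Figure D1:**
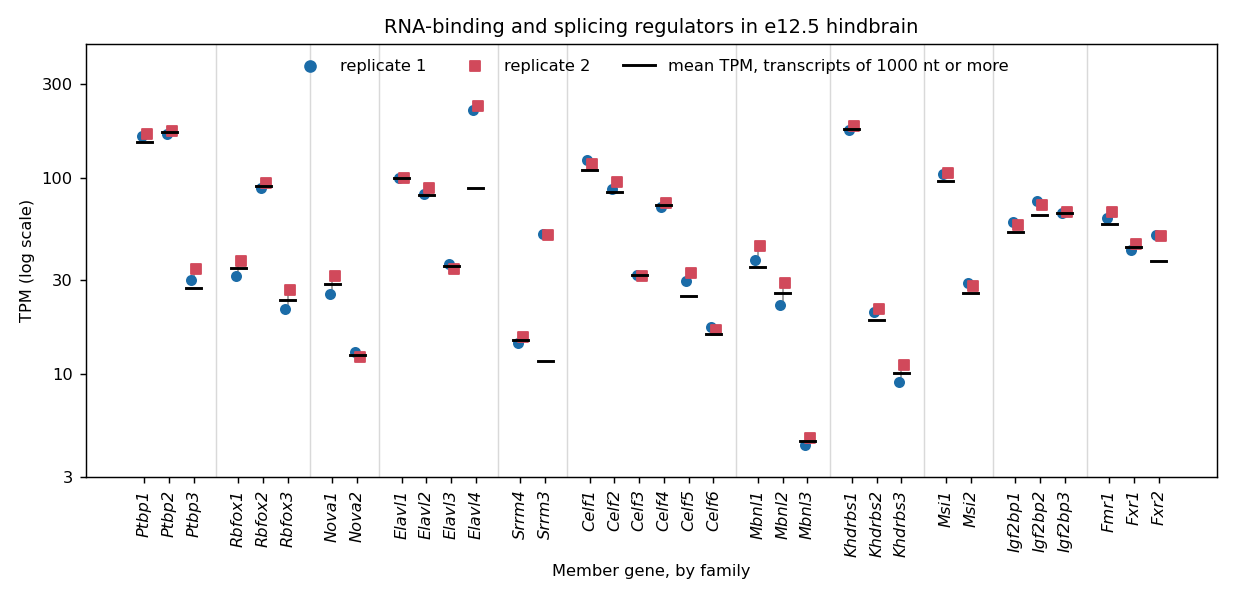
TPM (log scale) of the 34 regulators by family in replicate 1 (blue circles) and replicate 2 (red squares). Black bars mark the mean TPM counted over transcripts of 1000 nt or more. The bars lie close to the points for most genes and far below them for Elavl4 and Srrm3.

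The 6 genes above 100 TPM were Elavl4, Khdrbs1, Ptbp2, Ptbp1, Celf1 and Msi1, and the lowest was Mbnl3 at 4.33 and 4.75 TPM, from 203 and 230 expected counts. The plot of levels by family shows that the range across the genes was far larger than the gap between the libraries for any gene. Some genes nevertheless lay close together, such as Ptbp1 and Ptbp2, or Celf3 and Celf5. Within a family, a difference is called larger than the replicate spread here where its order was the same in both libraries and its mean log2 ratio exceeded 2 SD of the ratio.

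The polypyrimidine tract-binding proteins repress exons next to pyrimidine-rich sequence. Ptbp1 (chr10:79854427-79864771), the paralogue of progenitors and of cells outside the nervous system, stood at 163.28 and 166.73 TPM in replicates 1 and 2. Ptbp2 (chr3:119718742-119784466), its paralogue in differentiating neurons, stood at 167.99 and 172.99 TPM. The pair was thus nearly level in this tissue. Ptbp2 lay above Ptbp1 by a mean log2 ratio of 0.05 ± 0.01 (1.03-fold), but the posterior mean TPM of the same tables gave a log2 ratio of -0.011, so the pair is not ordered here. Ptbp3, the third paralogue, known from blood cells, had 30.17 and 34.18 TPM, 8.35% and 9.14% of the family's TPM. An opposite-strand gene, Plppr3 (234.65 and 233.51 TPM), overlaps Ptbp1 exons by 205 nt, and since it is not given whether counting used strand, reads in that overlap are uncertain.

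Ptbp1 showed a pair of exons that bear on its protein and its amount. The sequences are shown in the spliced transcript on the plus strand of mm10, with the exon in capitals and 20 nt of each neighbouring exon in lower case. The first, at chr10:79860117-79860194, is a coding exon of 78 nt in the linker between RNA-binding domains, and its skipping is known to weaken repression. The second, at chr10:79862014-79862047, is a coding exon of 34 nt whose length is not a multiple of 3. Its skipping is known to expose the mRNA to nonsense-mediated decay (NMD), the degradation of mRNA with an early stop codon.
Ptbp1 78 nt exon: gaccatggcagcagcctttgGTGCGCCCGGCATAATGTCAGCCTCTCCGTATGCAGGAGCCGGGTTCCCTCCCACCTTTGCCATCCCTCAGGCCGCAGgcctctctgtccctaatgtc
Ptbp1 34 nt exon: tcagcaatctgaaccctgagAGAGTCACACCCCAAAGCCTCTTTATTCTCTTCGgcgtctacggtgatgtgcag

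Inclusion of an exon is the summed TPM of the gene's transcripts that hold it, as a percent of the summed TPM of all transcripts that span its position. The remainder holds transcripts that skip the exon and those with another exon form across its position. The 78 nt exon was included in 39.4% and 42.0% of the Ptbp1 TPM that spanned it. Forms with and without it were therefore both abundant in both libraries. Ptbp1-202, a transcript that skips it, held 36.68% and 37.68% of Ptbp1 TPM, and Ptbp1-216, which includes it, held 35.10% and 35.77%. The 34 nt exon, chosen after its values were seen, was included in 97.3% and 96.8%, and transcripts that skipped it held 1.13% and 1.19%. Degraded transcripts are lost from such a share, so it describes the RNA present and not the rate of skipping.

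The Rbfox proteins bind GCATG in introns and promote or repress the exon according to the side on which they bind. Rbfox2, the most widely expressed of them, stood at 88.32 and 93.60 TPM, Rbfox1 at 31.60 and 37.80 TPM, and Rbfox3, whose protein is the neuronal marker NeuN, at 21.42 and 26.95 TPM. Rbfox2 alone exceeded the sum of Rbfox1 and Rbfox3 in both libraries, with log2 ratios of 0.74 and 0.53 (mean 0.63 ± 0.14, 1.55-fold). That is more than 2 SD of the ratio. Both neuron-enriched members were higher in replicate 2, Rbfox1 by 1.20-fold and Rbfox3 by 1.26-fold, and Rbfox2 by 1.06-fold.

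Rbfox2-203 was the leading Rbfox2 transcript, with 68.94% and 68.92% of the gene's TPM. In Rbfox1 a short coding transcript of 1191 nt, Rbfox1-202, led with 82.0% and 86.5%. Its lead was smaller in expected counts, with 536.76 and 624.43 against 430.24 and 356.57 for Rbfox1-201 (4084 nt). Rbfox3 was divided among more forms, led by Rbfox3-203 with 31.6% and 30.8%. Rbfox3-204 moved from 8.02% in replicate 1 to 26.34% in replicate 2, and no other listed transcript of any of the 34 genes moved as far.

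Nova proteins bind clustered YCAY motifs and regulate exons of synaptic genes. Nova1 (chr12:46694517-46818929), known from hindbrain and spinal cord, stood at 25.61 and 31.67 TPM. Nova2, known from the neocortex and other brain regions, stood at 12.93 and 12.15 TPM. Nova1 was above Nova2 in both libraries, by 2.27-fold in the mean, and the log2 ratio of Nova2 to Nova1 was -0.99 and -1.38 (mean -1.18 ± 0.28). The size of that gap differed between libraries, since Nova1 was 1.24-fold higher in replicate 2 and Nova2 slightly lower. Nova2 had a pair of transcripts, and the longer, Nova2-201, held 46.45% and 35.88%, while the other, with no type in the annotation used, held 53.55% and 64.12%.

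Elavl proteins stabilise AU-rich mRNAs and also regulate splicing. Elavl1, which encodes the ubiquitous HuR, stood at 99.73 and 100.01 TPM. Of the neuronal members, Elavl2 (HuB) stood at 83.08 and 88.82 TPM, Elavl3 (HuC) at 36.56 and 34.15 TPM and Elavl4 (HuD, chr4:110203722-110351909) at 220.98 and 232.41 TPM. The neuronal members together exceeded Elavl1 by 3.48-fold (log2 ratio 1.80 ± 0.04).

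Elavl4 had the highest TPM of the 34 genes, at the 95.6th percentile of detected protein-coding genes, but that rank rests on short transcripts. Its leading transcript, Elavl4-211 (869 nt, annotated as a processed transcript without a coding frame), held 31.28% and 26.48%, and Elavl4-210 (464 nt, of the same type) held 24.68% and 20.87%. The longer coding Elavl4-202 (4024 nt) held 27.14% and 24.95%, yet it carried 4464.84 and 3981.18 of the gene's expected counts, against 1009.54 and 828.93 for Elavl4-211. Counted over transcripts of 1000 nt or more, Elavl4 had 84.50 and 93.61 TPM and ranked 8th, and the neuronal members exceeded Elavl1 by 2.06-fold (log2 ratio 1.05 ± 0.05). Their sum was above Elavl1 either way.

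Elavl2 and Elavl4 each carry an exon of 39 nt in the linker before the last RNA-binding domain, which distinguishes known protein variants. The exons are shown to let the paralogues be compared, on the minus strand of mm10, with the exon in capitals. That of Elavl2 lies at chr4:91254141-91254179 and that of Elavl4 at chr4:110209740-110209778.
Elavl2 39 nt exon: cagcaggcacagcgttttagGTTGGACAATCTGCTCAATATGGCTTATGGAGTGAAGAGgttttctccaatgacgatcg
Elavl4 39 nt exon: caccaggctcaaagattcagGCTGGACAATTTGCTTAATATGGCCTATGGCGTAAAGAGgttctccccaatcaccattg

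The exons are identical at 33 of 39 positions. That of Elavl2 was included in 88.4% and 93.6%, and that of Elavl4, chosen after its values were seen, in 98.3% and 97.7%. Both genes thus mainly carried the form with the exon. The other named Elavl exons were an 87 nt exon of Elavl4 (5.42% and 13.2%) and a 91 nt exon of Elavl2 (17.97% and 16.3%). The inclusion of the 87 nt exon rests mainly on a short transcript, Elavl4-212 (663 nt), with 74.67 and 199.20 expected counts.

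SRRM4 and SRRM3 are paralogous activators of microexons. Srrm4 (chr5:116439275-116591817) stood at 14.47 and 15.39 TPM and Srrm3 (chr5:135806890-135874772) at 51.73 and 51.18 TPM. By TPM, Srrm3 was 3.45-fold above Srrm4 (log2 ratio 1.79 ± 0.07). The expected counts ran the other way, 1997 and 1975 for Srrm4 against 1004 and 896 for Srrm3. The leading Srrm3 transcript, Srrm3-202, is 526 nt long and held 59.5% and 56.6% of its TPM from 249.30 and 216.43 expected counts. Over transcripts of 1000 nt or more, Srrm3 had 11.56 and 11.64 TPM and the log2 ratio turned to -0.36 ± 0.06, so which paralogue is higher depends on the short transcripts. Srrm4 had no such division, with 96.5% and 97.8% in Srrm4-201 (7476 nt).

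Celf proteins bind GU-rich sequence in introns and mRNA. The widely expressed Celf1 stood at 122.60 and 117.99 TPM and Celf2 at 87.43 and 94.60 TPM. Of the members known mainly from the nervous system, Celf4 stood at 71.32 and 74.52 TPM, Celf3 at 32.11 and 31.75 TPM, Celf5 at 29.73 and 32.86 TPM and Celf6 at 17.45 and 16.75 TPM. The sum of Celf3 to Celf6 was below that of Celf1 and Celf2 in both libraries, by 1.38-fold (log2 ratio -0.46 ± 0.02). By gene TPM Celf3 and Celf5 were not ordered, since Celf3 was higher in replicate 1 and Celf5 in replicate 2. Over protein-coding transcripts alone Celf5 had 23.25 and 27.80 TPM, below Celf3 (32.11 and 31.75 TPM) in both libraries.

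Celf transcripts were mixed in most members. Celf1 was led by Celf1-204 (31.0% and 35.4%) and Celf2 by Celf2-206 (42.3% and 36.3%). Celf4-201 led Celf4 with 76.5% and 72.6%, beside Celf4-202 with 23.5% and 27.4%. In Celf5, Celf5-203 moved from 6.39% to 16.80% under an unchanged leader, Celf5-201 (69.0% and 66.4%), and Celf6-201 led Celf6 with 65.0% and 67.9%. Among exons, Celf2 included one of 197 nt in 74.5% and 71.5%, one of 144 nt in 70.0% and 69.0% and one of 41 nt in 5.75% and 7.69%. For the 197 nt exon, transcripts that skip it held only 0% and 0.07%. The rest of its spanning TPM lay in transcripts with another exon form there. An exon of 152 nt in Celf1 was included in 24.1% and 20.6%, and one of 129 nt in Celf5 in 83.9% and 91.4%. Transcripts that skip the Celf5 exon held 0% in both libraries. Its remainder lay in Celf5-207 (605 nt), annotated as retaining an intron. That transcript held 16.1% and 8.65% of Celf5 TPM, from 45.94 and 25.15 expected counts.

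Muscleblind-like proteins bind YGCY motifs and favour adult exon patterns in muscle and brain. Mbnl1 (chr3:60472830-60629750) stood at 38.09 and 45.16 TPM, Mbnl2 (chr14:120275669-120431697), the main paralogue of adult brain, at 22.42 and 29.12 TPM, and Mbnl3, known as an inhibitor of muscle differentiation, at 4.33 and 4.75 TPM. Mbnl2 lay below Mbnl1, with log2 ratios of -0.76 and -0.63 (mean -0.70 ± 0.09). Counted over protein-coding transcripts alone the mean log2 ratio was -0.020 ± 0.11, with opposite signs in the libraries, so the pair is not ordered on that scale. Mbnl1 was 1.19-fold and Mbnl2 1.30-fold higher in replicate 2, the library with the higher muscle and mesenchymal genes, whose part in this was not tested.

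Mbnl1 and Mbnl2 share an exon of 54 nt that controls entry of the protein into the nucleus and is known to be skipped in mature tissue. It lies at chr3:60614683-60614736 in Mbnl1 and chr14:120395712-120395765 in Mbnl2, both on the plus strand of mm10. Mbnl1 also carries an exon of 36 nt near its 3′ end, at chr3:60621423-60621458. The Mbnl exons were chosen for display after their values were seen, with the exon in capitals.
Mbnl1 54 nt exon: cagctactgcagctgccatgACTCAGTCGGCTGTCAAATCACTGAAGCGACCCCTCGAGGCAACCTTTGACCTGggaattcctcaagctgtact
Mbnl2 54 nt exon: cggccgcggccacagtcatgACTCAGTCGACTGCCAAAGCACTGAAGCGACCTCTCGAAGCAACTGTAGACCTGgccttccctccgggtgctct
Mbnl1 36 nt exon: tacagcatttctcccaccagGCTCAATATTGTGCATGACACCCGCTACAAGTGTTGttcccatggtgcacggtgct

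The 54 nt exons are identical at 46 of 54 positions. In Mbnl1 the exon was included in 50.8% and 49.3%. The transcripts that skip it include Mbnl1-212 (1019 nt), annotated as a processed transcript. Mbnl1-212 held 11.8% and 15.6% of Mbnl1 TPM from 78.52 and 113.56 expected counts, and it also skips the 36 nt exon. Mbnl2 had a pair of listed transcripts, Mbnl2-201 with 55.9% and 56.0% of its TPM and Mbnl2-202 with 44.1% and 44.0%. In the annotation used both hold the 54 nt exon, so these shares say nothing of its skipping. The annotated model of Mbnl2-202 differs in length from the deposited one, and no Mbnl2 exon inclusion is given. The 36 nt exon of Mbnl1 was included in 28.2% and 25.4%, and one of 111 nt in 11.7% and 10.7%. The 111 nt exon is held only by a short transcript, Mbnl1-210 (576 nt), with 33.03 and 33.27 expected counts.

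Khdrbs proteins (Sam68 and the SLM proteins) bind UAAA-like motifs and regulate neurexin exons. Khdrbs1, the widely expressed Sam68, stood at 175.61 and 183.36 TPM. Khdrbs2 (SLM1) had 20.75 and 21.54 TPM and Khdrbs3 (SLM2) 9.11 and 11.13 TPM. Khdrbs1 exceeded the sum of both SLM genes by 5.75-fold (log2 ratio 2.52 ± 0.05), in both libraries. Khdrbs1-201 held 90.6% and 90.5% of its gene, and an NMD transcript, Khdrbs1-202, held 6.95% and 6.80%. Khdrbs2-201 held 65.9% and 64.4% of Khdrbs2.

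Musashi proteins regulate translation and are markers of neural progenitors. Msi1 (chr5:115429599-115455698) stood at 104.47 and 105.60 TPM and Msi2 at 29.26 and 28.05 TPM, a gap of 3.67-fold (log2 ratio 1.87 ± 0.05). Msi1-208 held 84.2% and 88.2% of Msi1, whose 57 nt exon was included in 89.6% and 94.0%. Msi2 was divided. Its coding Msi2-203 held 46.6% and 43.7%, and transcripts annotated as retaining an intron, Msi2-207 and Msi2-205, held 22.1% and 25.6%, and 18.8% and 18.6%. Over protein-coding transcripts alone the log2 ratio of Msi1 to Msi2 was 2.89 ± 0.16 (7.43-fold).

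Igf2bp proteins are fetal factors that protect and transport mRNA, and the members were close to each other. Igf2bp2 stood at 76.13 and 72.92 TPM, Igf2bp3 at 65.77 and 66.90 TPM and Igf2bp1 at 59.43 and 57.25 TPM, in the same order in both libraries. Over protein-coding transcripts alone the order changed. Igf2bp2, at 34.37 and 31.29 TPM, became the lowest, below Igf2bp1 at 53.46 and 50.93 TPM and Igf2bp3. A retained-intron transcript of 3267 nt, Igf2bp2-207, held 37.6% and 41.6% of its TPM beside the coding Igf2bp2-201 with 40.9% and 42.9%. Igf2bp1-201 held 89.95% and 88.95% of Igf2bp1, and Igf2bp3 had 1 transcript. Malsu1 (48.9 and 47.6 TPM) lies on the other strand and overlaps Igf2bp3 by 1529 nt, so the level of Igf2bp3 is uncertain without strand.

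FMRP, encoded by Fmr1, and its paralogues bind mRNA on ribosomes and restrain translation. Fmr1 (chrX:68678541-68717963) stood at 62.07 and 66.76 TPM, Fxr2 at 51.21 and 50.72 TPM and Fxr1 at 42.73 and 46.04 TPM. Fmr1 exceeded Fxr1 by 1.45-fold with little spread (log2 ratio 0.54 in both libraries). On protein-coding transcripts the log2 ratio was 0.14 ± 0.05. On that scale Fxr2, at 36.90 and 38.27 TPM, lay below Fxr1, which stayed at 42.73 and 46.04 TPM. Fxr1 shares 236 nt of exon with Dnajc19 on the other strand (81.1 and 72.1 TPM). Fxr1-202 led Fxr1 with 79.6% and 77.0%, beside Fxr1-201 with 20.5% and 23.0%, and Fxr2-201 led Fxr2 with 72.1% and 75.5%.

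Fmr1 carries a known alternative coding exon of 63 nt at chrX:68705861-68705923, on the plus strand of mm10. It is shown, in capitals, because it was included in a minority of the Fmr1 TPM in both libraries.
Fmr1 63 nt exon: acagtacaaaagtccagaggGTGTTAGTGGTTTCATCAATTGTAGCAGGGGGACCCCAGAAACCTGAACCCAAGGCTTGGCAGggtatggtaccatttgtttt

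Inclusion of this exon was 33.0% in replicate 1 and 34.2% in replicate 2. The leading transcript, Fmr1-206 (45.71% and 41.04%), was followed by Fmr1-201 with 15.2% and 18.5%.

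No member moved past 1.5-fold between the libraries in either direction. Among the 16041 genes with a mean of 1 TPM or more, 4.12% were higher in replicate 2 by 1.5-fold or more and 3.91% lower. Of the members, 26 agreed within 10%. More were higher in replicate 2, 24 of 34, against 53.1% of all genes, with a median of 1.04-fold against 1.01-fold. The largest ratios were those of Mbnl2 (1.30), Rbfox3 (1.26), Nova1 (1.24), Khdrbs3 (1.22), Rbfox1 (1.20) and Mbnl1 (1.19), and all others lay between 0.93 and 1.13. Neuronal markers were higher in replicate 2 for 8 of 9 genes (median 1.07-fold) and progenitor markers for 2 of 9 (median 0.947-fold). The part of these marker differences in the members' ratios was not tested. Of the 60 other RNA-binding genes, 1 moved past 1.5-fold: Esrp1, a splicing regulator of epithelia, from 298 to 184 expected counts.

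**Figure D2:**
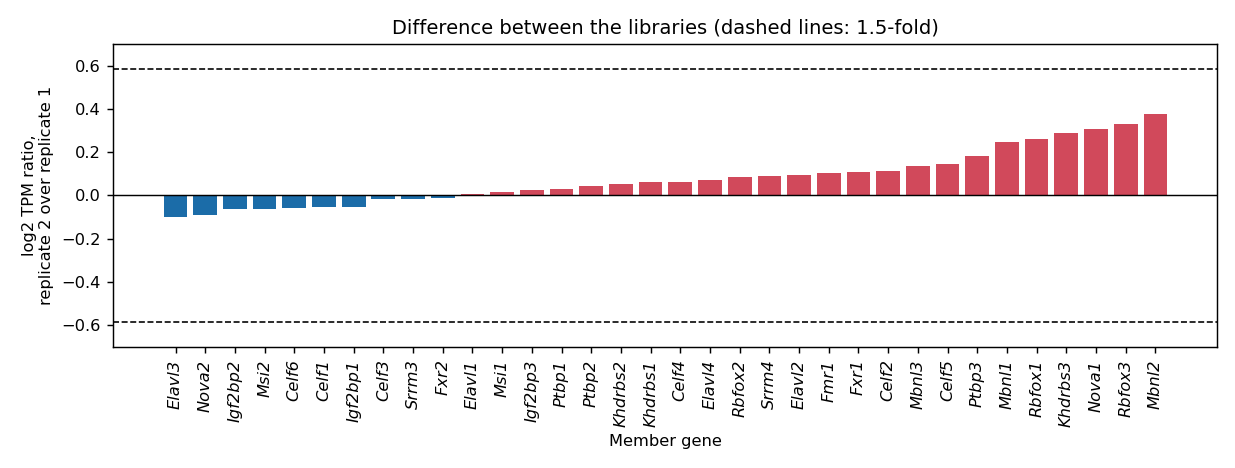
log2 ratio of TPM, replicate 2 over replicate 1, for each of the 34 regulators in order of the ratio, with dashed lines at 1.5-fold. All bars lie inside the lines, with 24 above 0 and 10 below.

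The transcript tables listed 246 transcripts of the 34 genes, and 7 genes had 1 transcript each (Ptbp2, Nova1, Elavl1, Elavl3, Celf3, Khdrbs3 and Igf2bp3). Of the members with several transcripts and 5 TPM or more, 26 of 26 had the same leading transcript in both libraries, against 92.4% of all such genes. In 2 of these 26, Srrm4 and Khdrbs1, the leader held 90% or more in both libraries, against 19.9% of all such genes. It held under 50% in both libraries in 10 of the 26, against 22.2%. Of 107 transcripts with a share of 5% or more, 5 moved by over 10 percentage points: Rbfox3-204, both Nova2 transcripts, Celf5-203, and Mbnl3-202 (21.06% to 31.18%). In Mbnl3, the least deeply covered member, Mbnl3-203 led with 37.3% and 39.5%.

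Among the members with several transcripts, 1 of 26, Elavl4, was led by a transcript annotated with a type other than protein coding, against 7.91% of protein-coding genes. The leading Nova2 transcript has no type in the annotation used, and such transcripts are not counted in either number. Members with under 75% of TPM in protein-coding transcripts in both libraries numbered 6 of 26 (23.1%), against 25.4% of protein-coding genes, so the share of the members was close to the background. They were Igf2bp2 (45.1% and 42.9% coding), Elavl4 (44.1% and 52.7%), Msi2 (50.1% and 46.0%), Mbnl1 (62.9% and 62.1%), Srrm3 (71.7% and 66.6%) and Nova2. In this count transcripts without a type were taken as not coding, for members and background alike, and Nova2 is among the 6 through its transcript without a type. In Igf2bp2, Msi2 and Srrm3 retained-intron transcripts made up most of the remainder, and in Elavl4 processed transcripts did. In Mbnl1, led by Mbnl1-214 with 29.1% and 29.7%, the remainder was divided between both types.

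**Figure D3:**
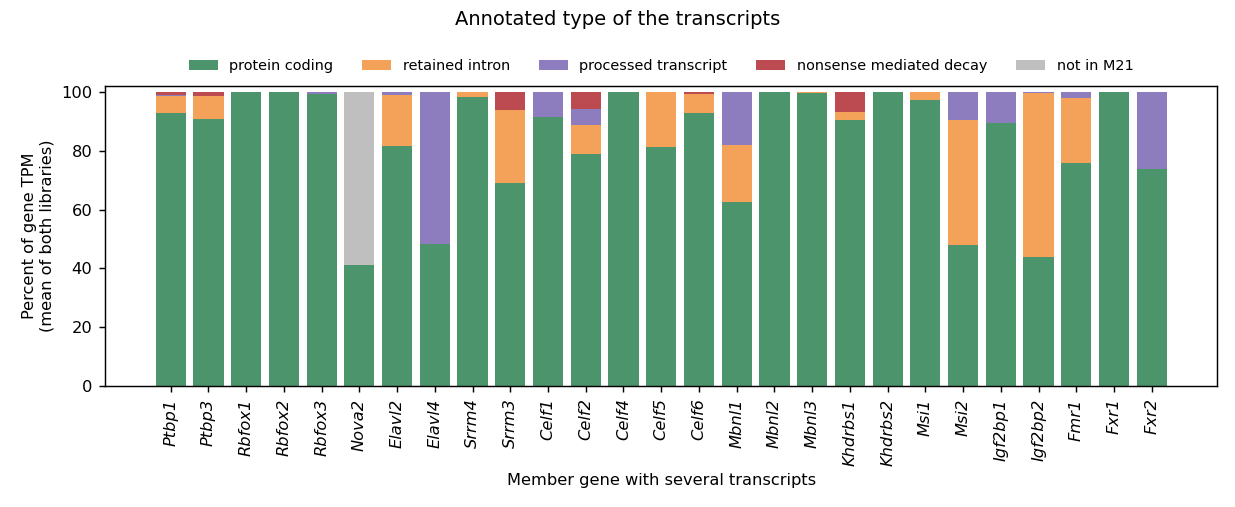
Percent of gene TPM (mean of both libraries) by annotated transcript type for the 27 regulators with several transcripts, stacked to 100%. Retained-intron transcripts are largest in Igf2bp2 and Msi2 and processed transcripts in Elavl4, and the grey part of Nova2 has no type in the annotation.

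The annotation held 55 alternative internal exons in 17 members. Inclusion lay between 5% and 95% in both libraries for 30 of these, in 13 members, and 22 of the 30 were wholly coding. A length that is a multiple of 3, which keeps the reading frame, was found for 14 of the 30. Some entries are alternative ends of 1 exon and not separate exons, such as those of 82 and 73 nt in Ptbp3. A value in the range also need not mean skipping. Transcripts that skip the exon held at most 3.06% in either library for several of the 30. These were in Ptbp3 (170, 82 and 73 nt), Celf2 (197 nt), Celf5 (129, 52 and 49 nt) and Celf6 (81 and 78 nt). Of the 52 exons in members at 5 TPM or more, these 30 made up 57.7%, against 45.7% of 12801 such exons in protein-coding genes at 5 TPM or more, a difference that was not tested.

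Microexons of genes that these proteins are known to regulate gave a second readout. In a list of 63 such genes, 26 had annotated exons of 27 nt or less with enough coverage, 51 exons in all. Inclusion was between 5% and 95% in both libraries for 35 exons, above 50% in both for 14 and below 50% in both for 34. Forms with and without the exon were therefore both present for these 35. Some of them are not separate measurements, since the 16 and 5 nt exons of Eif4g3 rest on the same transcripts, as do those of Vav2. Their share was not compared with that of microexons in all genes, and its relation to cell types was not tested.

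The following microexons, with the exon in capitals, are ones used as readouts of PTBP1 or SRRM4 activity. The exon of Src, a kinase, is known as the neuronal N1 exon and is repressed by PTBP1. The exon of Mef2d, a transcription factor, is known from brain and muscle. Those of Apbb1, an adaptor of the amyloid precursor protein, and Unc13b, a factor of synaptic vesicle release, are known SRRM4 targets. Their positions on mm10 are chr2:157458843-157458860 (plus strand), chr3:88161781-88161801 (plus), chr7:105565946-105565951 (minus) and chr4:43233904-43233909 (plus).
Src 18 nt exon: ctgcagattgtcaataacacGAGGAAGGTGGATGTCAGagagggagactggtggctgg
Mef2d 21 nt exon: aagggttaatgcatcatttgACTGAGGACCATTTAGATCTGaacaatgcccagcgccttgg
Apbb1 6 nt exon: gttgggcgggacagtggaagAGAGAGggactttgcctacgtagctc
Unc13b 6 nt exon: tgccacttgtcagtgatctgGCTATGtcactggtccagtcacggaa

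The Src exon was included in 38.9% and 42.0% of the TPM that spanned it. The Apbb1 exon was included in 78.7% and 68.5%. Those of Mef2d (10.1% and 11.3%) and Unc13b (14.6% and 9.54%) were mostly skipped. The readouts thus did not stand at one level, and the known SRRM4 targets Apbb1 and Unc13b lay far apart in both libraries.

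Several other microexons lay in the middle of the range. In Agrn, which encodes the synapse organiser agrin, an exon of 12 nt was included in 46.9% and 48.8%. In the motor protein gene Kif1a an exon of 18 nt was included in 62.2% and 63.2%. Its skipping rests on a single transcript, Kif1a-208 (37.8% and 36.8%), which does not span the Kif1a microexons further downstream. In the transcription factor gene Mef2a an exon of 24 nt was included in 69.4% and 71.7%. Exons in the translation factor genes Eif4g1 (21 nt, 22.7% and 21.1%) and Eif4g3 (21 nt, 33.1% and 38.6%) were lower. The replicate error was larger for others. The Dnm1 exon of 12 nt moved from 38.6% to 53.8%, the Med23 exon of 18 nt from 60.5% to 74.3% and a Ptprd exon of 9 nt from 57.5% to 46.9%.

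**Figure D4:**
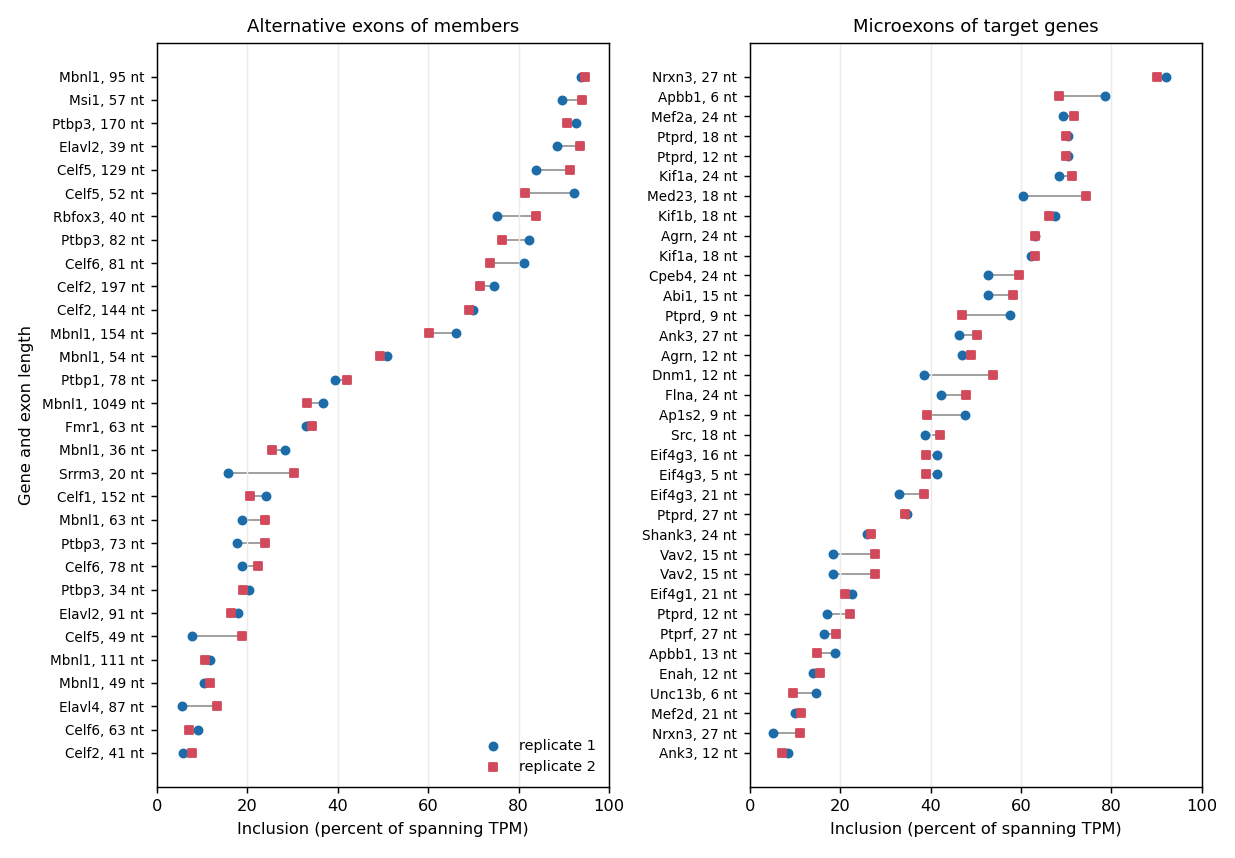
Inclusion (percent of spanning TPM) in replicate 1 (blue circles) and replicate 2 (red squares) of the 30 alternative exons of the regulators (left) and the 35 microexons of target genes (right), labelled by gene and exon length. Lines join the libraries, and the longest on the right is that of Dnm1.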

How the data were processed

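Per the labels, RNA of 2 hindbrain pools was sequenced. The authors deposited gene and transcript tables on mm10 with the GENCODE M4 annotation. The sources used here give neither aligner nor quantifier, nor whether strand was used. Expected counts, per the file headers, are estimated fragment numbers and need not be whole. TPM, as deposited by the authors, has 1 total over genes and spike-ins, and the spike-ins held 8.39% and 10.9% of it. FPKM, per the file headers, scales fragments by length and library size. The transcript share is deposited as a percent of the gene.

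Names, transcript types, exons and exon sequences were taken from the GENCODE M21 annotation of mm10. Of 246 member transcripts, 244 were found there by identifier, and the 231 of unchanged length were used for exons. Values were computed with Python 3.11.15 and pandas 2.3.3. TMM scaling (edgeR 4.0.16, R 4.3.3, rounded counts, 10 counts or more) served as an alternative. The fold call was tested on simulated counts, and the search for alternative exons on a small made-up example. Ratios, transcript shares and inclusion values were not tested in this way. A p-value was not computed, since 2 libraries of 1 group offer no contrast. The replicate numbers compare libraries of 1 group and pair nothing. Counts limit precision, and amplified fragments without molecular identifiers do not each stand for a molecule.

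The members and lists were chosen with earlier results of these data known. All members were named, with their leading transcripts, the 12 member exons of largest spanning TPM within 5% to 95% inclusion, and microexons of 27 nt or less. Genes and exons named outside this rule are said to be so or serve as markers.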

Additional observations from a re-analysis of the deposited data

How the results depend on the processing

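All 34 members were detected under every alternative except at 5 TPM, where 33 were. The counts of members past 1.5-fold, of shared leading transcripts and of exons within the inclusion range stayed within 1.5 times. The largest change in member exons came over coding and NMD transcripts alone, where 22 lay within the inclusion range, against 30. At a lower fold limit, which 18.1% of all genes passed, 2 members passed (Mbnl2 and Rbfox3). The median TPM of the members was 52.77 without spike-ins and 36.35 over protein-coding transcripts, by construction of these scales. With the posterior mean TPM the log2 ratio of Ptbp2 to Ptbp1 reversed to -0.011 and that of Fmr1 to Fxr1 was 0.55. The transcript restrictions were chosen after seeing the data. Over transcripts of 1000 nt or more, the log2 ratios were 0.16 for Ptbp2 over Ptbp1, 1.05 for neuronal Elavl over Elavl1, -0.36 for Srrm3 over Srrm4 (reversed), -0.42 for Celf3 to Celf6 over Celf1 and Celf2, -1.31 for Igf2bp1 over the other two, 0.39 for Fmr1 over Fxr1, -0.45 for Mbnl2 over Mbnl1 and 2.61 for Khdrbs1 over the other two. Over protein-coding transcripts they were, in the same order, 0.16, 1.11, 1.28, -0.31, -0.93, 0.14, -0.020 and 2.38, and 2.89 for Msi1 over Msi2. The Nova ratio over protein-coding transcripts was not run, since a Nova2 transcript has no type. These shifts follow from which transcripts were counted, and for the posterior mean the cause was not tested. Single libraries gave medians of 46.97 and 48.38 TPM and Nova2 to Nova1 ratios from -1.38 to -0.99. No paired analysis was possible because there was 1 group.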
